A study of Marchantia polymorpha with 9 samples.

Results

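The genes described here are those of *Marchantia polymorpha* that lie on small scaffolds, meaning scaffolds with 5 or fewer gene identifiers in the expression table. The scaffold was read from each identifier (Mapoly1171s0002 is gene 2 of scaffold 1171), and the identifiers were counted per scaffold over the whole table. This rule used no measured value and gave 694 of 19287 genes (3.60%), on 534 of 761 scaffolds (70.2%). The other 227 scaffolds held 18480 genes, with a median of 58 identifiers each, and 113 genes named MapolyY were left out because their identifiers carry a different prefix. Of the 694 genes, 424 were alone on their scaffold, while 154 lay on scaffolds of 2 genes, 60 on scaffolds of 3, 36 on scaffolds of 4 and 20 on scaffolds of 5. At the limit of the rule, the 4 scaffolds with 5 genes (20 genes) had a median gene level of 1.69 FPKM and the 4 scaffolds with 6 genes (24 genes) one of 4.15 FPKM, each as the mean of the 3 group averages. No step marked the limit, since the median was 5.36 FPKM on scaffolds with 4 genes and 0.623 FPKM on those with 7.

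RNA-Seq was performed on 3-week-old thalli of 3 groups: the overexpression lines MpBHLH12ox#2 and MpBHLH12ox#3, and the wild type Tak-1. Both lines are independent transformants of Tak-1, a male accession, and carry MpBHLH12 fused to the fluorescent protein Citrine under the constitutive CaMV35S promoter. The sample labels call the gene MpGL3. Each line is a single transformant, so the transgene and its place of insertion cannot be told apart within a line. The labels number 3 replicates in each group, but the table holds 1 authors' average per group in FPKM, the number of fragments normalized for the length of the gene and the size of the library. No spread between replicates and no depth could therefore be obtained from these averages. No test was possible on them, and every difference is a description of these averages. Changes are given as log2(FPKM + 1) in a line minus log2(FPKM + 1) in Tak-1, a scale on which the change of a gene of low FPKM is understated.

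A scaffold is a stretch of assembled sequence whose place in the chromosomes is not known in a draft genome. Long scaffolds carry genes in their true order, whereas short ones are pieces that the assembly could not join, often because they are flanked by repeats, and gene models on them may be incomplete. MpBHLH12 is a basic helix-loop-helix transcription factor of the IIIf group, a group known in flowering plants for its control of flavonoid pigments and epidermal cell fate. The question addressed here is whether genes on such pieces differ from the rest of the genome in their level, in their change in the 2 lines, and in how far genes of one scaffold moved together. The transgene target itself, Mapoly0031s0161, lies on a larger scaffold and averaged 547.6 FPKM in MpBHLH12ox#2, 474.6 FPKM in MpBHLH12ox#3 and 20.3 FPKM in Tak-1, a log2 change of 4.69 and 4.48.

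Genes on small scaffolds were more often listed at a low level or at 0. Of the 694 genes, 368 (53.0%) reached 1 FPKM in at least 1 group, against 12918 of the genes on larger scaffolds (69.9%). Genes listed at 0 in all 3 groups numbered 115 on small scaffolds (16.6%) and 1199 on larger ones (6.49%). On 72 small scaffolds every gene was listed at 0, and there was no such scaffold (0) among the larger ones. The share at 1 FPKM or more was 53.8% for genes alone on a scaffold, 51.9% for scaffolds of 2 genes, 45.0% for 3, 61.1% for 4 and 55.0% for 5. It was 64.3% for scaffolds of 6 to 20 genes, 66.8% for 21 to 50, 70.4% for 51 to 100 and 70.5% above 100. The share was thus below that of each larger class in each of the 5 small classes, with no steady trend among the small ones, of which those of 3 to 5 genes hold 60 genes or fewer each.

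**Figure D1:**
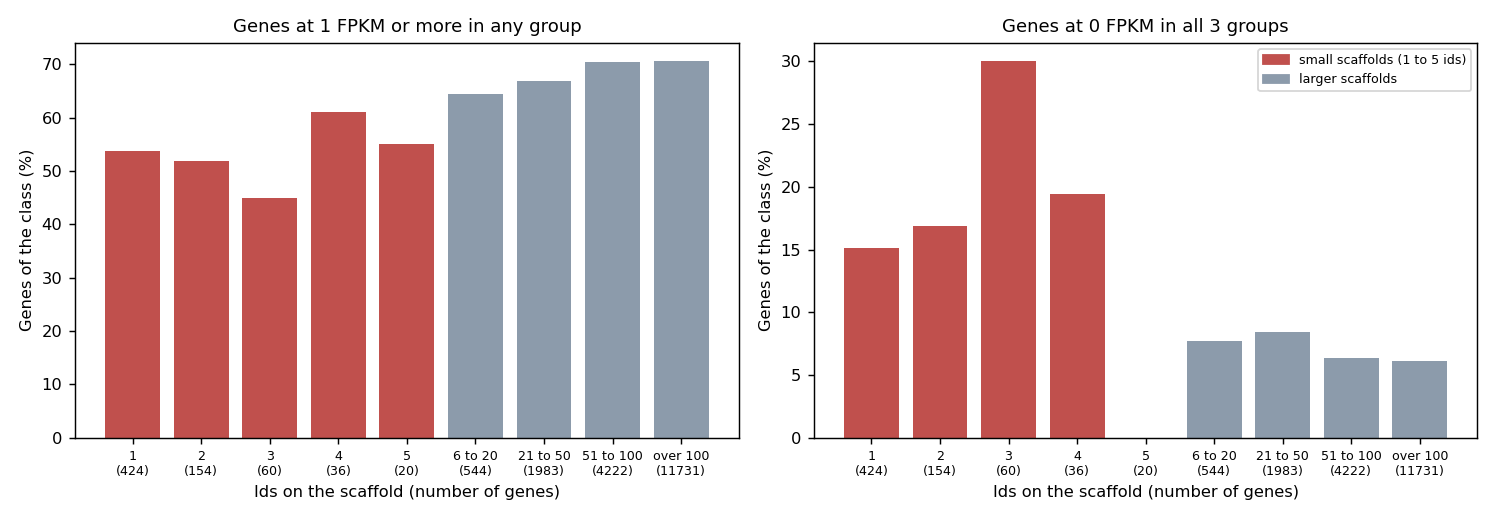
Share of genes at 1 FPKM or more in any group (left, percent) and at 0 FPKM in all 3 groups (right, percent) by the number of identifiers on their scaffold, with the number of genes in brackets. The 5 small classes, in red, lie between 45.0% and 61.1% on the left, and the 4 larger classes, in grey, between 64.3% and 70.5%.

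The median level of the small-scaffold genes was 0.961 FPKM in MpBHLH12ox#2, 1.15 FPKM in MpBHLH12ox#3 and 0.955 FPKM in Tak-1. On larger scaffolds the medians were 6.88, 7.03 and 6.54 FPKM in the same groups. The upper quartiles were 9.92 FPKM in MpBHLH12ox#2, 11.3 FPKM in MpBHLH12ox#3 and 9.94 FPKM in Tak-1 on small scaffolds, against 21.01, 21.20 and 21.19 FPKM on larger ones in the same groups. As a ratio of larger to small scaffolds the gap was 6.10 to 7.16 at the median and 1.87 to 2.13 at the upper quartile over the 3 groups. In FPKM it was wider at the upper quartile, at 9.85 to 11.3 FPKM, than at the median, at 5.58 to 5.92 FPKM.

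A few small-scaffold genes were among the most abundant of all. Mapoly4038s0001, alone on its scaffold, averaged 7374 FPKM in MpBHLH12ox#2, 4642 FPKM in MpBHLH12ox#3 and 4398 FPKM in Tak-1, and ranked 4 among all genes by its mean level. It supplied 42.3% of the summed FPKM of the small-scaffold genes in MpBHLH12ox#2, 31.8% in MpBHLH12ox#3 and 30.1% in Tak-1. The small-scaffold genes together held 2.71% of all FPKM in MpBHLH12ox#2, 2.29% in MpBHLH12ox#3 and 2.19% in Tak-1. Without Mapoly4038s0001 these shares were 1.58%, 1.57% and 1.54%, so the higher share in MpBHLH12ox#2 came from this gene. Its own level was higher by 0.75 on the log2 scale in MpBHLH12ox#2 and by 0.08 in MpBHLH12ox#3.

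The next 9 genes by level changed little. They had means of 196.3 to 426.8 FPKM over the 3 groups, and no change in either line exceeded 0.59 in size. Of these 9, 5 were lower in both lines, 2 were higher in both, and 2 differed in sign between the lines. By the mean of both lines, the largest changes were those of 2 genes of scaffold 2802, both lower. Mapoly2802s0002 averaged 407.6 FPKM in MpBHLH12ox#2, 348.1 FPKM in MpBHLH12ox#3 and 524.8 FPKM in Tak-1. Mapoly2802s0001, its neighbour, averaged 334.4 FPKM in MpBHLH12ox#2, 326.8 FPKM in MpBHLH12ox#3 and 439.6 FPKM in Tak-1. Both lines lay below Tak-1 for each gene. Mapoly1179s0001 and Mapoly3414s0001 were lower by a similar amount, with log2 changes of -0.41 and -0.40 for Mapoly1179s0001, and of -0.34 and -0.31 for Mapoly3414s0001, in MpBHLH12ox#2 and in MpBHLH12ox#3.

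A gene was counted as changed when both lines differed from Tak-1 by at least 1 on the log2 scale with the same sign. In bulk tissue a lower level may stand for fewer cells of a type or for less RNA per cell, and these cannot be told apart. By this count 20 small-scaffold genes were higher in both lines (2.88%), where 1.08% of all genes were, and 11 were lower in both (1.59%), where 1.05% of all genes were. The 31 genes made up 4.47% of the small-scaffold genes, against 379 of the genes on larger scaffolds (2.05%) and 2.13% of all genes. All lay on scaffolds of 1 to 3 genes, with 21 of 424 (4.95%), 7 of 154 (4.55%) and 3 of 60 (5.00%) in these classes. On scaffolds of 4 and 5 genes, 0 of 36 and 0 of 20 were changed. Both lines were set against the same Tak-1 average, so a deviation of that average enters both changes. The median log2 change over all 694 genes was 0 in each line, as it was on larger scaffolds, and the median size of the mean change was 0.107 on small scaffolds against 0.108 on larger ones. These medians include the genes listed at 0 in every group, whose change is 0 and which are more frequent on small scaffolds.

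Line by line, MpBHLH12ox#2 had 26 small-scaffold genes higher by at least 1, where 1.48% of all genes were, and 18 lower, where 1.42% of all genes were. The 44 genes were 6.34% of the small-scaffold genes, against 2.79% on larger scaffolds. MpBHLH12ox#3 had 36 higher, where 1.91% of all genes were, and 12 lower, where 1.25% of all genes were. These 48 genes were 6.92%, against 3.05% on larger scaffolds. At a size of 2 in both lines, 4 genes were higher, where 0.197% of all genes were, and 5 were lower, where 0.192% of all genes were. The 5 decreases were among the 37 of that size in the whole table and the 4 increases among 38. Of the 20 largest mean decreases of all genes 5 lay on small scaffolds, and of the 20 largest mean increases 2 did.

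Since genes listed near 0 cannot move far on this scale, the counts were repeated within bins of the mean level. No gene (0 of 338) with a mean under 1 FPKM was changed on small scaffolds, against 14 of 5858 on larger ones. Between 1 and 5 FPKM, 10 of 115 were changed on small scaffolds (8.70%) and 113 of 2507 on larger ones (4.51%). Between 5 and 20 FPKM the counts were 7 of 122 (5.74%) and 120 of 5230 (2.29%). The widest gap lay between 20 and 100 FPKM, with 13 of 98 on small scaffolds (13.3%) and 104 of 3987 on larger ones (2.61%). At 100 FPKM or more, where small scaffolds had 21 genes, 1 was changed (4.76%), against 28 of 898 (3.12%). The median size of the mean change followed the same order, being 0.234 on small and 0.132 on larger scaffolds between 5 and 20 FPKM, and 0.314 against 0.145 between 20 and 100 FPKM. How much of either value was replicate error was not tested.

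**Figure D2:**
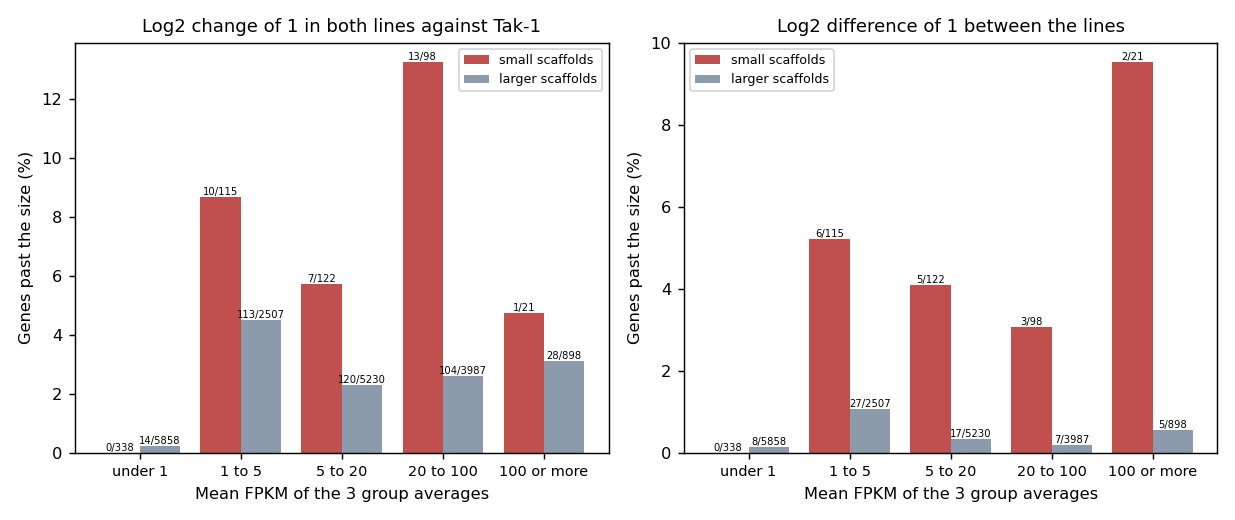
Share of genes past a log2 change of 1 in both lines against Tak-1 (left, percent) and past a log2 difference of 1 between MpBHLH12ox#3 and MpBHLH12ox#2 (right, percent), by the mean FPKM of the 3 group averages. Red bars are small scaffolds and grey bars larger ones, with the counts above each bar. From 1 FPKM upward the red bar is the taller in every bin, and the highest bin rests on 21 small-scaffold genes.

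The 20 genes higher in both lines lay on 19 scaffolds, and 16 of them were alone on theirs. Their median level was 22.2 FPKM in MpBHLH12ox#2, 13.6 FPKM in MpBHLH12ox#3 and 3.87 FPKM in Tak-1. Tak-1 had less than 1 FPKM for 6 of them. No name or function is given for these identifiers in the sources used here, so they are described by level only. Mapoly1233s0001 had the largest increase, averaging 73.2 FPKM in MpBHLH12ox#2, 29.9 FPKM in MpBHLH12ox#3 and 6.11 FPKM in Tak-1 (log2 change 3.38 and 2.12). It was the increase ranked 11 among all genes. Mapoly0376s0002 averaged 30.7 FPKM in MpBHLH12ox#2, 29.4 FPKM in MpBHLH12ox#3 and 4.14 FPKM in Tak-1 (2.63 and 2.56), so here both lines reached nearly the same level. Its only scaffold neighbour, Mapoly0376s0001, stayed at or below 0.363 FPKM in every group.

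At higher levels, Mapoly0329s0001 averaged 104.3 FPKM in MpBHLH12ox#2, 85.3 FPKM in MpBHLH12ox#3 and 16.7 FPKM in Tak-1, a log2 change of 2.57 and 2.29. Mapoly0970s0001 averaged 119.4 FPKM in MpBHLH12ox#2, 87.8 FPKM in MpBHLH12ox#3 and 21.8 FPKM in Tak-1, a log2 change of 2.40 and 1.96. Mapoly4414s0001 averaged 35.6 FPKM in MpBHLH12ox#2, 26.6 FPKM in MpBHLH12ox#3 and 10.4 FPKM in Tak-1. In each of these the order of the groups was the same, with MpBHLH12ox#2 highest. Mapoly2351s0001 averaged 32.4 FPKM in MpBHLH12ox#2, 27.6 FPKM in MpBHLH12ox#3 and 10.5 FPKM in Tak-1, and Mapoly2423s0001 averaged 18.4, 15.9 and 4.42 FPKM in the same groups.

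In other genes MpBHLH12ox#3 had the higher level. Mapoly0749s0001 averaged 5.72 FPKM in MpBHLH12ox#2, 11.4 FPKM in MpBHLH12ox#3 and 1.72 FPKM in Tak-1 (1.31 and 2.18). Mapoly1199s0001 averaged 9.93 FPKM in MpBHLH12ox#2, 10.8 FPKM in MpBHLH12ox#3 and 1.62 FPKM in Tak-1 (2.06 and 2.18). Mapoly0383s0001 averaged 3.37 FPKM in MpBHLH12ox#2, 4.49 FPKM in MpBHLH12ox#3 and 0.912 FPKM in Tak-1 (1.19 and 1.52), and its neighbour Mapoly0383s0002 was listed at 0 throughout. Further genes were close to 0 in the wild type. Mapoly0825s0001 averaged 4.58 FPKM in MpBHLH12ox#2, 3.52 FPKM in MpBHLH12ox#3 and 0.367 FPKM in Tak-1. Mapoly2589s0001 averaged 4.18 FPKM in MpBHLH12ox#2, 3.26 FPKM in MpBHLH12ox#3 and 0.379 FPKM in Tak-1. Mapoly1736s0001 averaged 1.62 FPKM in MpBHLH12ox#2, 2.39 FPKM in MpBHLH12ox#3 and 0.107 FPKM in Tak-1. For such genes the change depends on the pseudocount: the mean change of Mapoly1736s0001 was 1.43 when 1 was added to FPKM before taking logs and 3.32 when 0.1 was added. Mapoly0342s0002 and Mapoly0342s0003, described below with their scaffold, had mean changes of 1.97 and 1.80. The 5 remaining genes had mean changes of 1.10 to 1.30.

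**Figure D3:**
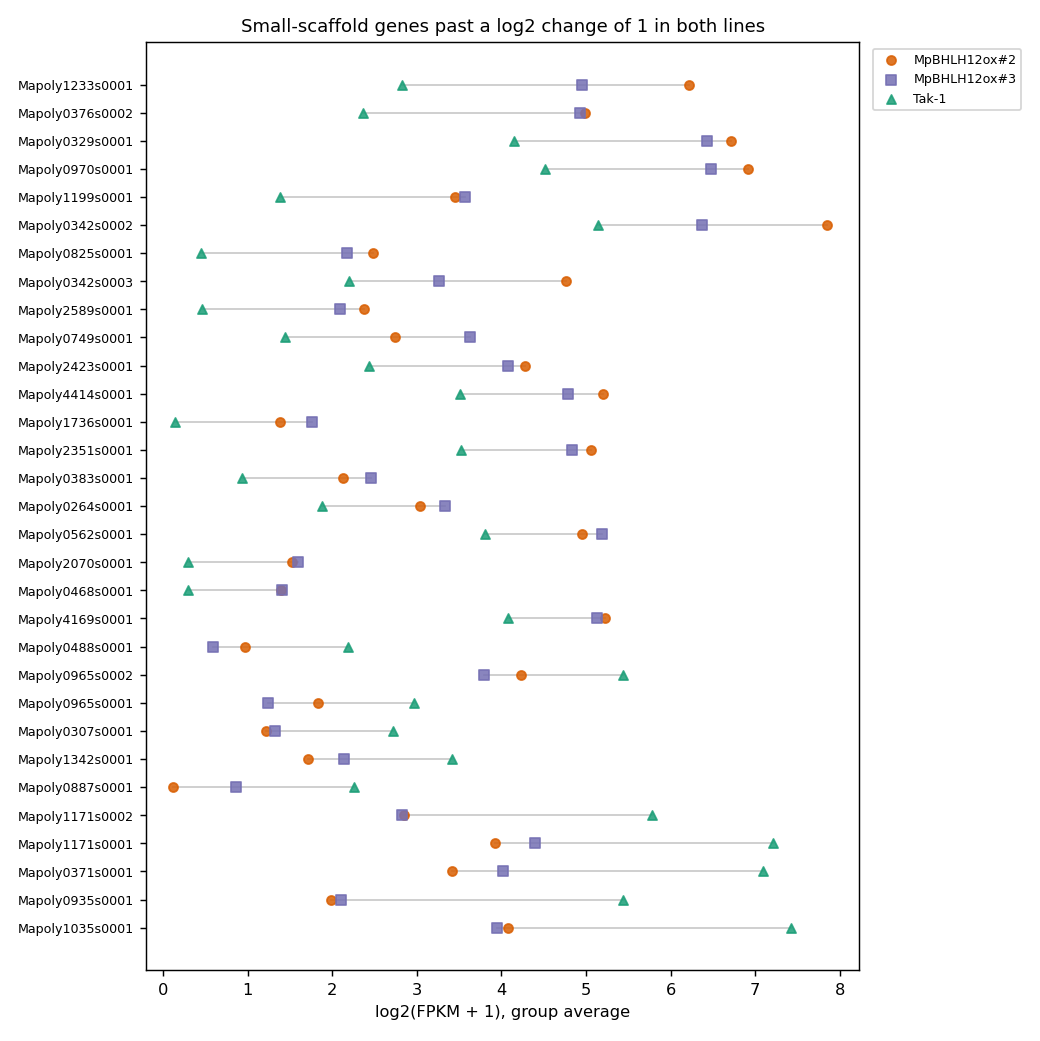
Level of each of the 31 small-scaffold genes changed in both lines, as log2(FPKM + 1) on the horizontal axis, with 1 point per group average for MpBHLH12ox#2 (orange circle), MpBHLH12ox#3 (purple square) and Tak-1 (green triangle). The 20 genes in the upper rows have both lines to the right of Tak-1 and the 11 in the lower rows have both lines to its left.

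The 11 genes lower in both lines lay on 9 scaffolds, 5 of them alone on theirs. Their median level was 2.97 FPKM in MpBHLH12ox#2, 3.40 FPKM in MpBHLH12ox#3 and 42.4 FPKM in Tak-1. The 5 largest decreases were from well expressed genes. Mapoly1035s0001 averaged 15.8 FPKM in MpBHLH12ox#2, 14.4 FPKM in MpBHLH12ox#3 and 170.4 FPKM in Tak-1 (-3.35 and -3.47). Mapoly0935s0001 averaged 2.97 FPKM in MpBHLH12ox#2, 3.29 FPKM in MpBHLH12ox#3 and 42.5 FPKM in Tak-1 (-3.45 and -3.34). Mapoly0371s0001 averaged 9.67 FPKM in MpBHLH12ox#2, 15.2 FPKM in MpBHLH12ox#3 and 135.7 FPKM in Tak-1 (-3.68 and -3.07). In these 3 both lines lay far below Tak-1, with MpBHLH12ox#3 above MpBHLH12ox#2 in Mapoly0371s0001, and they held ranks 7, 8 and 9 among the decreases of all genes.

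The other decreases of that size formed a pair on scaffold 1171. Mapoly1171s0001 averaged 14.2 FPKM in MpBHLH12ox#2, 19.99 FPKM in MpBHLH12ox#3 and 146.9 FPKM in Tak-1 (-3.28 and -2.82). Mapoly1171s0002 averaged 6.21 FPKM in MpBHLH12ox#2, 6.11 FPKM in MpBHLH12ox#3 and 53.9 FPKM in Tak-1 (-2.93 and -2.95). The 2 genes of this scaffold thus fell together. Scaffold 0965 also had both of its changed genes lower. Mapoly0965s0002 averaged 17.8 FPKM in MpBHLH12ox#2, 12.8 FPKM in MpBHLH12ox#3 and 42.4 FPKM in Tak-1 (-1.21 and -1.65), and Mapoly0965s0001 averaged 2.56, 1.37 and 6.83 FPKM in the same groups (-1.14 and -1.72). In both genes MpBHLH12ox#3 was the lower line.

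The other 4 genes lower in both lines were below 10 FPKM in every group. Mapoly1342s0001 averaged 2.28 FPKM in MpBHLH12ox#2, 3.40 FPKM in MpBHLH12ox#3 and 9.66 FPKM in Tak-1. Mapoly0307s0001 averaged 1.33 FPKM in MpBHLH12ox#2, 1.51 FPKM in MpBHLH12ox#3 and 5.57 FPKM in Tak-1. Mapoly0488s0001 averaged 0.966 FPKM in MpBHLH12ox#2, 0.509 FPKM in MpBHLH12ox#3 and 3.57 FPKM in Tak-1. Mapoly0887s0001 was nearly absent from MpBHLH12ox#2, at 0.0821 FPKM, with 0.823 FPKM in MpBHLH12ox#3 and 3.79 FPKM in Tak-1.

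The 2 lines differed from each other more often on small scaffolds. This comparison does not use Tak-1. A log2 difference of at least 1 was found in 16 small-scaffold genes (2.31%), against 64 on larger scaffolds (0.346%) and 0.415% of all genes. Of these, 7 were higher in MpBHLH12ox#3, where 0.296% of all genes were, and 9 were lower in MpBHLH12ox#3 than in MpBHLH12ox#2, where 0.119% of all genes were. The split depended on the pseudocount, being 20 higher and 12 lower with 0.1, and 3 higher and 8 lower with 5, totals of 4.61% and 1.59% of the small-scaffold genes against 1.87% and 0.0812% of those on larger scaffolds. Small-scaffold genes supplied 9 of the 23 genes of the whole table that were lower in MpBHLH12ox#3 (39.1%), and 7 of the 57 that were higher (12.3%). They also supplied 9 of the 20 largest differences between the lines. Within level bins, the shares were 5.22% on small and 1.08% on larger scaffolds between 1 and 5 FPKM, 4.10% and 0.325% between 5 and 20 FPKM, and 3.06% and 0.176% between 20 and 100 FPKM.

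The largest difference between the lines in the whole table was that of Mapoly0248s0005, with 5.95 FPKM in MpBHLH12ox#3 and 0 in MpBHLH12ox#2, beside 6.11 FPKM in Tak-1. Among the genes of small and larger scaffolds, without the MapolyY genes, it was the single one listed at 0 in MpBHLH12ox#2 with at least 1 FPKM in both other groups. Mapoly2364s0001 ranked next, with 0.804 FPKM in MpBHLH12ox#3, 7.53 FPKM in MpBHLH12ox#2 and 0.680 FPKM in Tak-1. Here MpBHLH12ox#2 stood apart while MpBHLH12ox#3 lay near the wild type. The same held for Mapoly3858s0001, with 1.85 FPKM in MpBHLH12ox#3, 9.66 FPKM in MpBHLH12ox#2 and 1.69 FPKM in Tak-1. Mapoly4156s0001 averaged 3.96 FPKM in MpBHLH12ox#3, 13.1 FPKM in MpBHLH12ox#2 and 3.39 FPKM in Tak-1, and Mapoly2118s0001 averaged 21.6, 53.1 and 16.9 FPKM in the same groups. Mapoly3272s0001 was a weaker case, with 2.11 FPKM in MpBHLH12ox#3, 5.93 FPKM in MpBHLH12ox#2 and 2.30 FPKM in Tak-1.

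Other genes stood apart in MpBHLH12ox#3. Mapoly4316s0001 averaged 118.7 FPKM in MpBHLH12ox#3, 41.9 FPKM in MpBHLH12ox#2 and 38.5 FPKM in Tak-1. Mapoly2282s0001 averaged 3.34 FPKM in MpBHLH12ox#3, 0.722 FPKM in MpBHLH12ox#2 and 0.943 FPKM in Tak-1. Mapoly0307s0003 was lower in MpBHLH12ox#2 and higher in MpBHLH12ox#3 by more than 0.5 each on the log2 scale, averaging 6.76 FPKM in MpBHLH12ox#3, 1.56 FPKM in MpBHLH12ox#2 and 2.79 FPKM in Tak-1. The lines also differed in Mapoly0248s0003, with 14.4 FPKM in MpBHLH12ox#3, 6.22 FPKM in MpBHLH12ox#2 and 6.91 FPKM in Tak-1. On scaffold 0377 both genes moved alike: Mapoly0377s0001 averaged 14.5 FPKM in MpBHLH12ox#3, 4.17 FPKM in MpBHLH12ox#2 and 3.54 FPKM in Tak-1, and Mapoly0377s0002 averaged 12.2, 5.07 and 3.49 FPKM in the same groups. In all, 6 small-scaffold genes were higher by at least 1 in MpBHLH12ox#2 with a change below 0.5 in size in MpBHLH12ox#3 (0.865%), where 0.0985% of all genes were. In turn, 5 were higher by at least 1 in MpBHLH12ox#3 with a change below 0.5 in size in MpBHLH12ox#2 (0.720%), where 0.213% of all genes were.

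**Figure D4:**
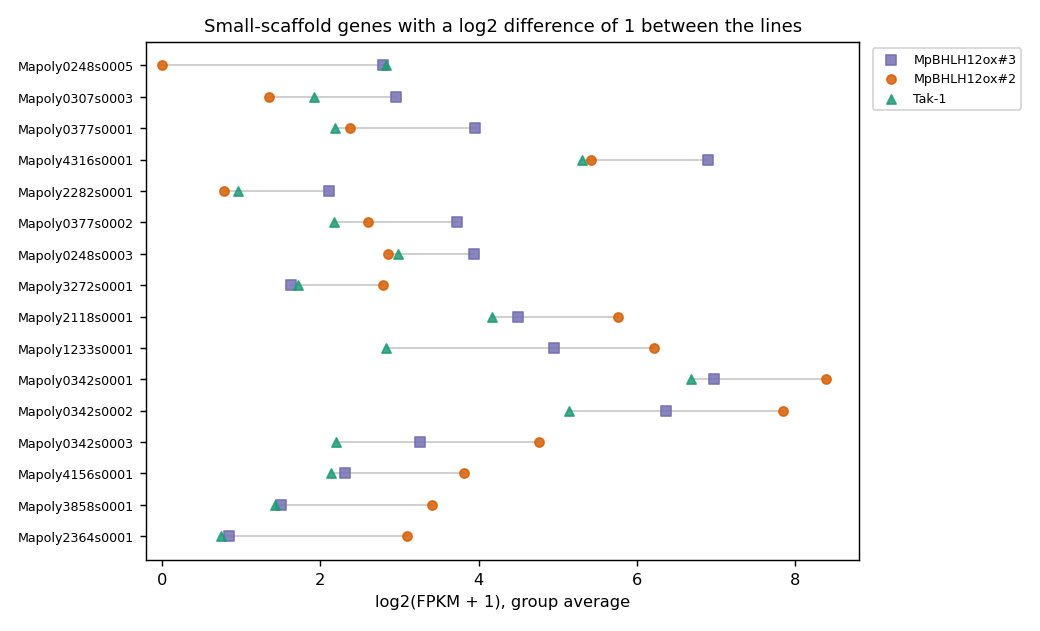
Level of each of the 16 small-scaffold genes with a log2 difference of at least 1 between the lines, as log2(FPKM + 1) on the horizontal axis, with 1 point per group average for MpBHLH12ox#3 (purple square), MpBHLH12ox#2 (orange circle) and Tak-1 (green triangle). The upper 7 genes are higher in MpBHLH12ox#3 and the lower 9 are lower in MpBHLH12ox#3 than in MpBHLH12ox#2.

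Genes of one small scaffold tended to move together. Of the small scaffolds, 110 held at least 2 identifiers, and 49 of them had at least 2 genes that reached 1 FPKM in any group. Pairs of such genes at most 4 places apart in identifier order were compared, which gave 82 pairs of 113 genes on small scaffolds and 36071 pairs of 12903 genes on larger ones. The mean change of both lines had the same sign in 57 of the 82 pairs (69.5%), against 52.7% on larger scaffolds. Pearson's r of the mean changes across pairs, with every pair entered in both orders, was 0.57 on small scaffolds and 0.12 on larger ones. Pairs of one scaffold share genes and the same 3 group averages, so they are not independent, and r is a description only. For adjacent genes alone, the same sign was found in 69.6% of 56 pairs with r = 0.74 on small scaffolds, against 55.2% of 9381 pairs with r = 0.23 on larger ones.

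The correlation was smaller without the scaffolds of the largest shared changes. Without scaffold 1171, r was 0.44 and the share of pairs with the same sign 69.1%. Without scaffolds 1171, 0342 and 0965, which each held 2 genes changed in both lines, r was 0.20 and the share 67.5%. These scaffolds were left out because their genes had changed alike, so neither value measures stability. In the lines taken singly, the share was 67.1% in MpBHLH12ox#2 (r = 0.51) and 63.4% in MpBHLH12ox#3 (r = 0.63). The difference between the lines, which does not use Tak-1, had the same sign in 64.6% of the pairs on small scaffolds (r = 0.50) and in 52.2% of those on larger ones (r = 0.11). The level of the genes compared also mattered: with all pairs above 0 FPKM in any group, the share was 57.4% of 169 pairs on small scaffolds, against 52.5% on larger ones. In the lines taken singly, without pairs in which a gene had a change of 0, it was 64.1% in MpBHLH12ox#2 and 53.3% in MpBHLH12ox#3. On larger scaffolds it was 52.3% in each line.

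**Figure D5:**
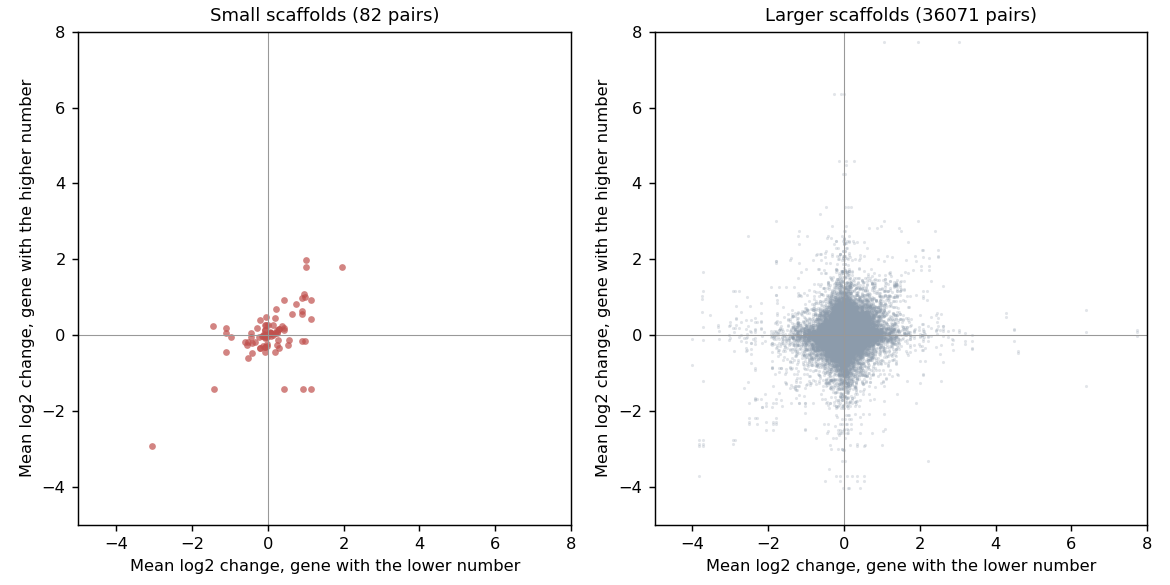
Mean log2 change of the 2 lines against Tak-1 for pairs of genes on one scaffold, at most 4 places apart and at 1 FPKM or more in any group, with the gene of the lower number on the horizontal axis. The 82 pairs on small scaffolds (left, red) fall mostly in the quadrants of equal sign (r = 0.57), and the 36071 pairs on larger scaffolds (right, grey) spread about 0 in all quadrants (r = 0.12). Each pair is drawn once, whereas r was computed with every pair entered in both orders.

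Neighbours were also compared for large changes. In 15 pairs on small scaffolds at least 1 gene had a mean change past 1 in size, and in 5 of these both did in the same direction (33.3%), against 201 of 2409 on larger scaffolds (8.34%). These 5 pairs came from 3 scaffolds, with 3 pairs on scaffold 0342 and 1 each on scaffolds 1171 and 0965. Mapoly0342s0001 is in 2 of them and lay at the limit, with a mean change of 1.00. After rescaling to a median change of 0, there were 3 of 15 pairs on small scaffolds (20%), against 201 of 2397 on larger ones (8.39%), and with a pseudocount of 5 there were 2 of 8 (25%) against 62 of 1090 (5.69%). Of the 31 genes changed in both lines, 10 lay on 7 scaffolds with other genes. These scaffolds gave 12 genes as neighbours, of which 4 stayed under 1 FPKM in every group. Of the 12, 6 were changed, but these are among the same 10 genes, since 3 scaffolds held 2 changed genes each. The like count on larger scaffolds was not made. Mapoly1035s0001, the largest decrease, had a neighbour listed at 0 in every group.

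Scaffold 0342 was the clearest case with 3 genes. Mapoly0342s0001 averaged 334.5 FPKM in MpBHLH12ox#2, 124.8 FPKM in MpBHLH12ox#3 and 101.7 FPKM in Tak-1. Mapoly0342s0002 averaged 228.7 FPKM in MpBHLH12ox#2, 81.8 FPKM in MpBHLH12ox#3 and 34.2 FPKM in Tak-1. Mapoly0342s0003 averaged 26.0 FPKM in MpBHLH12ox#2, 8.57 FPKM in MpBHLH12ox#3 and 3.60 FPKM in Tak-1. All 3 had the same order of groups, and the difference of MpBHLH12ox#3 minus MpBHLH12ox#2 was -1.42, -1.47 and -1.50. On scaffold 1623 the order of the lines was the other way round, with Mapoly1623s0001 at 34.1 FPKM in MpBHLH12ox#2, 53.1 FPKM in MpBHLH12ox#3 and 21.4 FPKM in Tak-1, and Mapoly1623s0002 at 38.1, 63.6 and 22.6 FPKM in the same groups.

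Not every scaffold moved as a block. On scaffold 0228, Mapoly0228s0002 averaged 10.7 FPKM in MpBHLH12ox#2, 12.6 FPKM in MpBHLH12ox#3 and 5.75 FPKM in Tak-1, and Mapoly0228s0003 averaged 11.97, 12.4 and 5.66 FPKM in the same groups. Mapoly0228s0005 of the same scaffold averaged 23.3 FPKM in MpBHLH12ox#2, 24.4 FPKM in MpBHLH12ox#3 and 26.5 FPKM in Tak-1, a change of the opposite sign. On scaffold 0248, Mapoly0248s0001 averaged 15.7 FPKM in MpBHLH12ox#2, 19.7 FPKM in MpBHLH12ox#3 and 7.39 FPKM in Tak-1, whereas Mapoly0248s0005 was listed at 0 in MpBHLH12ox#2. It was this pair that gave the 1 case of opposite mean changes past 1 in size. The mean of -1.43 for Mapoly0248s0005 came from MpBHLH12ox#2 (-2.83), with -0.03 in MpBHLH12ox#3. In neither line alone were both genes of the pair past 1 in size. In MpBHLH12ox#3 alone another pair had opposite changes past 1 in size, Mapoly0307s0001 (-1.39) and Mapoly0307s0003 (1.04). It was 1 of 19 pairs with a gene past 1 in that line, against 49 of 2631 on larger scaffolds. In MpBHLH12ox#2 alone the count was 0 of 10, against 47 of 2502. Scaffolds 0228 and 0248 were chosen after their values were seen. Over all small scaffolds with exactly 2 expressed genes, 24 of 37 had both with the same sign of the mean change. With 3 expressed genes 8 of 9 did, whereas with 4 none of 3 did (0). Larger scaffolds with so few expressed genes were rare, at 0 of 1 with 2, 1 of 4 with 3 and 0 of 4 with 4, too few for a comparison.

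Few of these genes can be given a role from the sources used here. Of the 82 shikimate and phenylpropanoid genes that the study listed, 1 lay on a small scaffold. This gene, Mapoly0858s0001, belongs to the polyketide synthases, the family of chalcone synthase, which makes the first flavonoid intermediate. It was listed at 0 in MpBHLH12ox#2, 0.0253 FPKM in MpBHLH12ox#3 and 0 in Tak-1. None of the 19287 identifiers (0) matched the RefSeq table of the later assembly, so no coordinates, names or sequences are given.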

How the data were processed

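The authors mapped reads with Bowtie2 against JGI genome 3.1 and counted fragments with HTseq. The submitters' processing notes also name Cuffdiff 2.2.1, without a role. The authors deposited FPKM as 1 average for each of 3 groups, covering 9 samples. What program computed FPKM, which annotation served and how values were filtered: not given in the sources used here. There were 0 other columns of sample values.

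The linear model planned for replicate values could not be fitted to averages. Instead, the difference in log2(FPKM + 1) between each line and Tak-1 was taken, and a size of 1 or more with equal sign in both defined a change. Averages over replicates gave no library depth. Genes at 1 FPKM or more in any group entered the pair comparison, with pairs at most 4 places apart. The text names the genes changed in both lines (above 30, the 15 largest each way), the 10 of highest mean FPKM, those past a difference of 1 between the lines, genes of the 5 scaffolds with the largest median changes, and list members. Members, lists and rules were chosen with earlier results of these data known. The alternatives were pseudocounts of 0.1 and 5, sizes of 0.5 and 2, rescaling, other limits of level and scaffold size, adjacent pairs and left-out scaffolds. Scripts ran in Python 3.11.15 with matplotlib 3.10.9, scipy 1.17.1, pandas 2.3.3 and numpy 2.4.6, and were tested on simulated data.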

Additional observations from a re-analysis of the deposited data

Results flagged for a closer look

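Mapoly0307s0003 moved in opposite directions in the 2 lines. It averaged 6.76 FPKM in MpBHLH12ox#3, 1.56 FPKM in MpBHLH12ox#2 and 2.79 FPKM in Tak-1, so its change in MpBHLH12ox#3 was 1.60 above that in MpBHLH12ox#2 on the log2 scale. With 1 average per group the difference was not tested.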

How the results depend on the processing

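No paired analysis was possible because replicates were averaged by the authors before deposit, and no fit with a replicate block or without a replicate was run. Counts of small-scaffold genes depended on the pseudocount and the size. With a pseudocount of 0.1, 63 genes were changed in both lines, 89 in MpBHLH12ox#2, 98 in MpBHLH12ox#3 and 32 between the lines. With a pseudocount of 5, 15 were changed in both lines, 24 in MpBHLH12ox#2, 25 in MpBHLH12ox#3 and 11 between the lines. At a size of 0.5 the counts were 82 in both lines, 112 in MpBHLH12ox#2, 127 in MpBHLH12ox#3 and 50 between the lines, and at a size of 2 they were 9, 16, 10 and 2. On small scaffolds the shares changed in both lines were 9.08% and 2.16% with pseudocounts of 0.1 and 5, and 11.8% and 1.30% at sizes of 0.5 and 2. In the order of the counts above, the shares of larger-scaffold genes were 4.42%, 6.55%, 6.98% and 1.87% with a pseudocount of 0.1, 0.871%, 1.23%, 1.32% and 0.0812% with 5, 7.92%, 10.97%, 11.16% and 2.43% at a size of 0.5, and 0.357%, 0.514%, 0.444% and 0.0108% at a size of 2. The share of small-scaffold genes counted as expressed was 71.0% at 0.1 FPKM and 36.2% at 5 FPKM, against 83.7% and 56.5% on larger scaffolds. Pairs with the same sign were 57.4% when genes only had to be above 0. Pearson's r of pairs on small scaffolds was 0.38 with a pseudocount of 0.1 and 0.68 with 5, against 0.12 and 0.11 on larger ones. With a limit of 3 identifiers r was 0.82 and the share of equal sign 71.7%. With a limit of 10 identifiers they were 0.56 and 61.1%. Rescaling gave 33 of 694 genes changed in both lines (4.76%), against 2.05% on larger scaffolds. A limit of 3 identifiers gave 31 of 638 (4.86%), against 2.04% on scaffolds above that limit. A limit of 10 identifiers gave 33 of 824 (4.005%), against 2.05% above it, so the share was lower with the wider limit. On scaffolds of 6 to 20 genes, 14 of 544 were changed in both lines (2.57%). Leaving out scaffolds 1171, 0342 and 0965, comparing pairs in each line or between the lines, and counting pairs past the size under other scalings, were chosen after seeing the data. The causes were not tested.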
